A study of Mus musculus with 6 samples.

Results

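The genes described here encode the building blocks of the cornified envelope that lie together in the epidermal complex on mouse chromosome 3. They were taken from the array annotation by gene symbol: the late cornified envelope genes (Lce with a number), the small proline-rich genes (Sprr with a number), the fused S100-type genes Flg, Flg2, Hrnr, Rptn, Tchh, Tchhl1 and Crnn, and Ivl, Lor, Crct1 and Kprp. This gave 44 of the 24647 genes on the array, with 18 Lce genes, 15 Sprr genes, 7 fused S100-type genes and 4 others. The 44 genes had 47 of the 34365 probe sets, and where a gene had more than 1 the probe set with the highest mean stood for it. The rule reads gene symbols and no measured value.

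Metaplastic nodules of the squamocolumnar junction (SCJ) were compared between K14-Cdx2::L2-IL-1β mice (samples 52540, 52541 and 52542) and L2-IL-1β mice (samples 52543, 52544 and 52545). Both genotypes were C57/BL6 mice that carried human IL-1β under the Epstein-Barr virus L2 promoter, which is active in the squamous lining of mouth, esophagus and forestomach. Both received 0.2% deoxycholic acid in the drinking water from 8 weeks of age for 12 months, to an age of 14 months. Only K14-Cdx2::L2-IL-1β mice also carried Cdx2 under the murine keratin 14 promoter, which is active in basal squamous cells. The nodules were dissected whole, so squamous, columnar, stromal and immune cells were measured together, and the sources used here do not say whether a sample pools several mice. The values are log2 intensities of Affymetrix mouse gene arrays. In such tissue, fewer cells of a type and less RNA per cell cannot be told apart.

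The cornified envelope replaces the cell membrane of the outermost squamous cells. Transglutaminases cross-link precursor proteins such as involucrin, loricrin, the small proline-rich proteins and, last, the late cornified envelope proteins into an insoluble shell, while filaggrin and related fused S100-type proteins bind keratin bundles beneath it. The mouse forestomach and esophagus are keratinized and use this program, and Sprr genes are known to be induced in stressed and inflamed squamous epithelium.

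In K14-Cdx2::L2-IL-1β nodules the genes of the complex that passed the test went in opposite directions by family. Those of the Lce1 class were higher, those of the Sprr2 class and Sprr1b were lower, and no Lce3 gene, fused S100-type gene or other envelope gene was called. Changes are given as log2 fold changes (log2FC) of K14-Cdx2::L2-IL-1β over L2-IL-1β nodules, and a gene was called where the adjusted p of limma, over all probe sets, lay under 0.10. Of the 18 Lce genes, 4 were called higher (Lce1m, Lce1l, Lce1h and Lce1i) and 0 lower, where 0.576% of all probe sets were called higher. Of the 15 Sprr genes, 4 were called lower (Sprr1b, Sprr2f, Sprr2k and Sprr2i) and 0 higher, where 1.26% of all probe sets were called lower. At an unadjusted p under 0.05, 12 Lce genes were higher and 0 lower, and 9 Sprr genes were lower and 0 higher, where 6% of all probe sets were higher and 7.68% lower. The remaining 36 members did not pass the test.

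The 250 bases before the transcription start are shown for the called Sprr genes, whose stretches hold matches to the AP-1 element, for Sprr2b, which holds the same element and was not called, and for the 2 Lce genes with the smallest p, which hold none. AP-1 dimers of Jun and Fos proteins are known activators of envelope genes. The sequences are from RefSeq on GRCm38.p6, run 5′ to 3′ on the strand of the gene and end at the base before the start, and capitals mark each match to TGANTCA.
Sprr2k, chr3:92432332-92432581, plus strand: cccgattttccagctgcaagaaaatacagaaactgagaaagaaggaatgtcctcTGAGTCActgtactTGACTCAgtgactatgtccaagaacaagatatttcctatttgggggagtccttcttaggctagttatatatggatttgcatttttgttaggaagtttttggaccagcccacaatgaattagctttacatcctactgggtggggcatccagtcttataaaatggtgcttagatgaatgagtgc
Sprr2f, chr3:92364937-92365186, plus strand: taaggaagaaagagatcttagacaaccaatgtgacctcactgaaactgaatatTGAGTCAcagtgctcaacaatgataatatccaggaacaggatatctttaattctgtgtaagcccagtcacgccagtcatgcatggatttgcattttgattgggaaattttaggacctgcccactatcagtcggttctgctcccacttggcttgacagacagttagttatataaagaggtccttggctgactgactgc
Sprr2i, chr3:92407741-92407990, plus strand: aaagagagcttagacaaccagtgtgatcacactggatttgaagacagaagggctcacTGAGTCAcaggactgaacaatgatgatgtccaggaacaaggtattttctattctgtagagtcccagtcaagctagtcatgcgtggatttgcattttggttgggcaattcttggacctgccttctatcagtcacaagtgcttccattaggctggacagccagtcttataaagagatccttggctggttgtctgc
Sprr1b, chr3:92438780-92439029, minus strand: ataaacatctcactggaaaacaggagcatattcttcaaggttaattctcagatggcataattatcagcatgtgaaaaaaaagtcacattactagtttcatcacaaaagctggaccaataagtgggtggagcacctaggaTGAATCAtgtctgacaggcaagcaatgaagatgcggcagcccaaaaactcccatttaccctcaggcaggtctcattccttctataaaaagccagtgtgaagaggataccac
Sprr2b, chr3:92316455-92316704, plus strand: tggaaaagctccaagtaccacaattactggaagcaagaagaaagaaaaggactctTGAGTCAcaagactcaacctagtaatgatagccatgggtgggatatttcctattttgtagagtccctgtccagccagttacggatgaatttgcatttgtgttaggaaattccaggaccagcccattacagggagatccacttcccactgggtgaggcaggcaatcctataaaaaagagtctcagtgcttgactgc
Lce1m, chr3:93019062-93019311, minus strand: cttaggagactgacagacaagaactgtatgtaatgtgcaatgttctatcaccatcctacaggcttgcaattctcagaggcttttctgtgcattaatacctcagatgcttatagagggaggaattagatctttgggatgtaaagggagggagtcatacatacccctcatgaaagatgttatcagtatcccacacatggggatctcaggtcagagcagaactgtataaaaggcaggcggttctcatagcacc
Lce1i, chr3:92778900-92779149, minus strand: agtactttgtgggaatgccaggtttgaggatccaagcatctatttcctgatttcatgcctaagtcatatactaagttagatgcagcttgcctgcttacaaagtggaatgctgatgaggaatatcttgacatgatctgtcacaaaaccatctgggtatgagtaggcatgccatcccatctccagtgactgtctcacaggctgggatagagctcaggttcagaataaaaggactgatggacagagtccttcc

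Such a stretch was at hand for 39 of the 44 members, and Sprr2g, Sprr2j-ps, Lce1f, Kprp and Crct1 had none. TGANTCA, which reads the same on both strands, was found in 9 of 13 Sprr stretches, 5 of 7 fused S100-type stretches, both of Ivl and Lor, and 0 of 17 Lce stretches, while 6.75% of all 32851 promoter stretches of this length hold it. Among the 9 Sprr2 stretches 7 held it. The first base of the match lay between 193 and 198 bases before the start in each of the 7, and Sprr2k had another match at 182. Sprr2a1 and Sprr2a2, whose stretches are identical over all 250 bases, had none, and their log2FCs were 0.01 and -0.03. Among the 7 genes that held it, the log2FC ran from -0.15 in Sprr2b to -1.81 in Sprr2h. The 7 stretches also shared a run of 10 bases, ATTTGCATTT, that began 108 to 112 bases before the start and was found on either strand in 0.207% of all stretches. Their pairwise identity ran from 60.1% to 89.3% (median 65.8%, 21 pairs). For the 12 Lce1 stretches it ran from 50.5% to 85.6% (median 64.2%, 66 pairs), and their longest shared run had 6 bases. The Sprr2a1 and Sprr2a2 stretches held neither ATTTGCATTT nor TATAAA, so they differ from the other Sprr2 stretches in more than TGANTCA. A link between such letters and the log2FC was not tested.

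Other motifs were searched on both strands in the same stretches. The CDX motif TTTATNG matched in 1 of 17 Lce, 4 of 13 Sprr and 4 of 7 fused S100-type stretches, against 9.81% of all stretches, and 5 of these 9 matches overlapped the TATA box (TATAAA). The GRHL motif AACCNGTT matched only in Rptn among the members, against 1.79% of all stretches. The antioxidant response element TGACNNNGC matched in Sprr2f, Sprr1a, Lce6a, Lce1d and Lce3c, against 10.2% of all stretches, and in Sprr1a it overlapped an AP-1 match. These are matches of letters, and binding was not measured.

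Of the 18 late cornified envelope genes, Lce1m on chr3:92821729-92822982 (minus strand, NCBIM37) differed most clearly. Lce proteins are small, cysteine-rich and glycine-rich proteins added late to the inner face of the envelope. The log2 intensity of Lce1m was 11.13, 11.26 and 10.74 in the K14-Cdx2::L2-IL-1β samples, against 9.61, 9.29 and 9.51 in the L2-IL-1β samples. Every K14-Cdx2::L2-IL-1β sample lay above every L2-IL-1β sample by more than the spread within either genotype. The log2FC was 1.58 (SE 0.15, adjusted p = 0.0218, limma), or 2.98-fold. A second probe set that carries the same symbol gave 9.54, 9.43 and 9.46 in K14-Cdx2::L2-IL-1β samples, against 9.21, 9.09 and 9.52 in L2-IL-1β samples, and there the genotypes overlapped (log2FC 0.21, adjusted p = 0.506, limma). With both probe sets averaged, Lce1m had a log2FC of 0.89 (adjusted p = 0.0399).

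Lce1l, on chr3:92653871-92655208, had 7.37, 8.06 and 7.63 in K14-Cdx2::L2-IL-1β nodules, against 6.81, 6.32 and 6.69 in L2-IL-1β nodules. Its log2FC was 1.08 (SE 0.20, adjusted p = 0.0853, limma). Sample 52541 was the highest of the 6, and the genotypes did not overlap. Lce1h, on chr3:92567137-92568987, had 11.33, 11.33 and 11.20 in K14-Cdx2::L2-IL-1β nodules, against 10.86, 10.37 and 10.39 in L2-IL-1β nodules, a log2FC of 0.74 (SE 0.14, adjusted p = 0.0885). Lce1i, on chr3:92581132-92582821, had 5.45, 5.52 and 5.54 in K14-Cdx2::L2-IL-1β nodules, against 5.07, 4.75 and 4.90 in L2-IL-1β nodules, a log2FC of 0.60 (SE 0.09, adjusted p = 0.0592). The K14-Cdx2::L2-IL-1β samples of both genes were tight, with SDs of 0.08 and 0.05. The Lce1i probe set was dim, and its change of 1.51-fold was small in intensity.

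**Figure D1:**
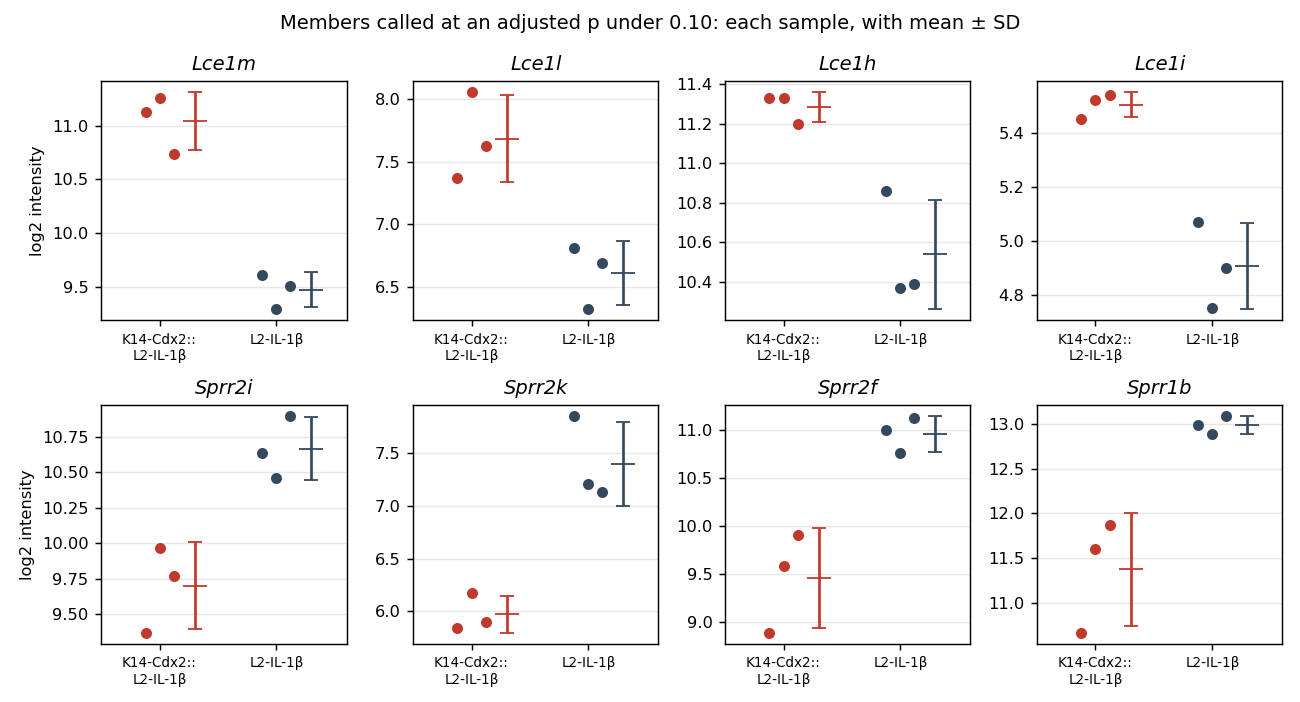
Log2 intensity of the 8 called members in each sample (points), with the mean ± SD of the genotype beside them (n = 3 each). K14-Cdx2::L2-IL-1β samples are on the left of each panel and L2-IL-1β samples on the right, the y axes differ between panels, and in no panel do the genotypes overlap.

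All 13 Lce1 genes had K14-Cdx2::L2-IL-1β samples above all L2-IL-1β samples, which 8.3% of all probe sets did. For 1 gene, 3 samples against 3 cannot give less than p = 0.10 in an exact two-sided permutation test, and every gene without overlap had that value. The 13 log2FCs ran from 0.17 (Lce1c) to 1.90 (Lce1k), with a median of 0.85, against -0.01 over all probe sets. Lce1c, the brightest of them, had 13.54, 13.46 and 13.45 in K14-Cdx2::L2-IL-1β nodules, against 13.44, 13.14 and 13.36 in L2-IL-1β nodules (adjusted p = 0.488). Lce1e separated as narrowly, at 12.66, 12.98 and 12.57 in K14-Cdx2::L2-IL-1β nodules, against 12.56, 11.82 and 12.46 in L2-IL-1β nodules (adjusted p = 0.418). Lce1k and Lce1g, named after their values were seen, had large differences that did not pass limma. Significance analysis of microarrays (SAM), the test named in the methods, called Lce1k higher but not Lce1g, where it called 1.82% of all probe sets higher. SAM also called Lce1b, Lce1f and Lce6a higher, which limma did not. Lce1k had 7.21, 8.65 and 8.04 in K14-Cdx2::L2-IL-1β nodules, against 6.65, 5.37 and 6.19 in L2-IL-1β nodules (log2FC 1.90, 95% confidence interval 0.85 to 2.95, adjusted p = 0.138). Lce1g had 6.41, 8.50 and 7.08 in K14-Cdx2::L2-IL-1β nodules, against 6.19, 5.78 and 5.93 in L2-IL-1β nodules (log2FC 1.37, 95% confidence interval 0.19 to 2.54, adjusted p = 0.299). In both genes sample 52541 stood well above the other K14-Cdx2::L2-IL-1β samples. The probe sets of Lce1c and Lce1d also name Lce1k, so signal from these copies may be shared.

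Lce6a, the single gene of its class, had 7.32, 7.61 and 6.94 in K14-Cdx2::L2-IL-1β nodules, against 6.47, 5.84 and 6.32 in L2-IL-1β nodules. Its genotypes did not overlap, and the adjusted p of 0.103 narrowly missed the threshold (log2FC 1.08, SE 0.22). The 4 Lce3 genes, a class known in human skin for its induction after barrier injury, had no called member. Lce3c had 12.06, 12.91 and 12.82 in K14-Cdx2::L2-IL-1β nodules, against 12.74, 12.29 and 12.61 in L2-IL-1β nodules (log2FC 0.05, 95% confidence interval -0.53 to 0.63, adjusted p = 0.952). Lce3f had 11.44, 11.94 and 11.17 in K14-Cdx2::L2-IL-1β nodules, against 11.45, 10.23 and 11.18 in L2-IL-1β nodules (log2FC 0.56, 95% confidence interval -0.26 to 1.38, adjusted p = 0.538). Lce3a (0.01) and Lce3b (-0.13) completed the class, whose median was 0.03. In all 4 the genotypes overlapped. The difference between the Lce1 and Lce3 classes was not tested. The genes that RefSeq now calls Lce3d and Lce3e carry older names in the annotation and so fell outside the rule, and their log2FCs were 0.01 and 0.21 (adjusted p = 0.997 and 0.623, limma).

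Of the 15 small proline-rich genes, Sprr1b on chr3:92240731-92242701 (minus strand, NCBIM37) and 3 of the Sprr2 class were called lower. Sprr proteins cross-bridge other envelope proteins through transglutaminase bonds. Sprr1b had 10.67, 11.60 and 11.87 in K14-Cdx2::L2-IL-1β nodules, against 12.98, 12.89 and 13.09 in L2-IL-1β nodules. The L2-IL-1β samples were nearly level (SD 0.10) and the K14-Cdx2::L2-IL-1β samples scattered below them (SD 0.63), with sample 52540 lowest. The log2FC was -1.61 (SE 0.29, adjusted p = 0.0803, limma), or 3.05-fold lower.

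Sprr2k, on chr3:92236504-92237847 (plus strand), had the smallest p of the family. It measured 5.84, 6.17 and 5.90 in K14-Cdx2::L2-IL-1β nodules, against 7.86, 7.21 and 7.13 in L2-IL-1β nodules, a log2FC of -1.43 (SE 0.20, adjusted p = 0.0499, limma). Sprr2f measured 8.89, 9.59 and 9.91 in K14-Cdx2::L2-IL-1β nodules, against 11.00, 10.76 and 11.13 in L2-IL-1β nodules, a log2FC of -1.50 (SE 0.25, adjusted p = 0.0682). Sprr2i, on chr3:92211913-92213193, measured 9.37, 9.97 and 9.77 in K14-Cdx2::L2-IL-1β nodules, against 10.64, 10.46 and 10.90 in L2-IL-1β nodules, a log2FC of -0.96 (SE 0.18, adjusted p = 0.0853). No K14-Cdx2::L2-IL-1β sample reached an L2-IL-1β sample in any of the 3 genes. The Sprr2i probe set also names Sprr2f, so these 2 values are not fully separate.

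Sprr2g and Sprr2h, named after their values were seen, had large differences that did not pass limma. SAM called both of them and Sprr2e lower, where it called 2.99% of all probe sets lower. Sprr2g, which RefSeq lists as a transcribed pseudogene, had 6.11, 7.96 and 8.23 in K14-Cdx2::L2-IL-1β nodules, against 9.87, 9.36 and 9.76 in L2-IL-1β nodules (log2FC -2.23, 95% confidence interval -3.51 to -0.95, adjusted p = 0.150). Sprr2h had 6.88, 8.22 and 8.80 in K14-Cdx2::L2-IL-1β nodules, against 9.85, 9.69 and 9.80 in L2-IL-1β nodules (log2FC -1.81, 95% confidence interval -2.89 to -0.74, adjusted p = 0.160). The wide intervals go with sample 52540, which lay more than 1 log2 unit below the other K14-Cdx2::L2-IL-1β samples in both genes. Without that sample both passed the test, among 6 Sprr genes called lower, where 1275 of all 34365 probe sets were called lower. In all, 8 of the 15 Sprr genes had K14-Cdx2::L2-IL-1β samples below all L2-IL-1β samples, against 11.5% of all probe sets.

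None of the other Sprr genes passed the test. Sprr2b, the brightest Sprr2 gene, had 13.85, 13.94 and 13.73 in K14-Cdx2::L2-IL-1β nodules, against 14.07, 13.88 and 14.02 in L2-IL-1β nodules (log2FC -0.15, adjusted p = 0.494, limma). The value of 14.07 was the highest on any array. Sprr1a, the partner of Sprr1b in its class, had 13.44, 13.48 and 13.47 in K14-Cdx2::L2-IL-1β nodules, against 13.61, 13.44 and 13.56 in L2-IL-1β nodules (log2FC -0.07, 95% confidence interval -0.23 to 0.09, adjusted p = 0.720). Sprr3, an esophageal member, had 12.65, 12.67 and 12.57 in K14-Cdx2::L2-IL-1β nodules, against 12.71, 12.66 and 12.72 in L2-IL-1β nodules (log2FC -0.07, adjusted p = 0.698). Sprr4 had 7.43, 8.16 and 7.70 in K14-Cdx2::L2-IL-1β nodules, against 7.91, 8.23 and 7.79 in L2-IL-1β nodules (log2FC -0.21, adjusted p = 0.708). In these 4 genes the genotypes overlapped. The probe sets of Sprr2a1 and Sprr2a2 name both genes, and 2 further Sprr2a1 probe sets with identical values had a log2FC of -0.11. The remaining Sprr2d (-0.41), Sprr2e (-0.96) and Sprr2j-ps (-0.30) did not pass the test. Over the 15 genes the log2FC ran from -2.23 to 0.01 with a median of -0.41.

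**Figure D2:**
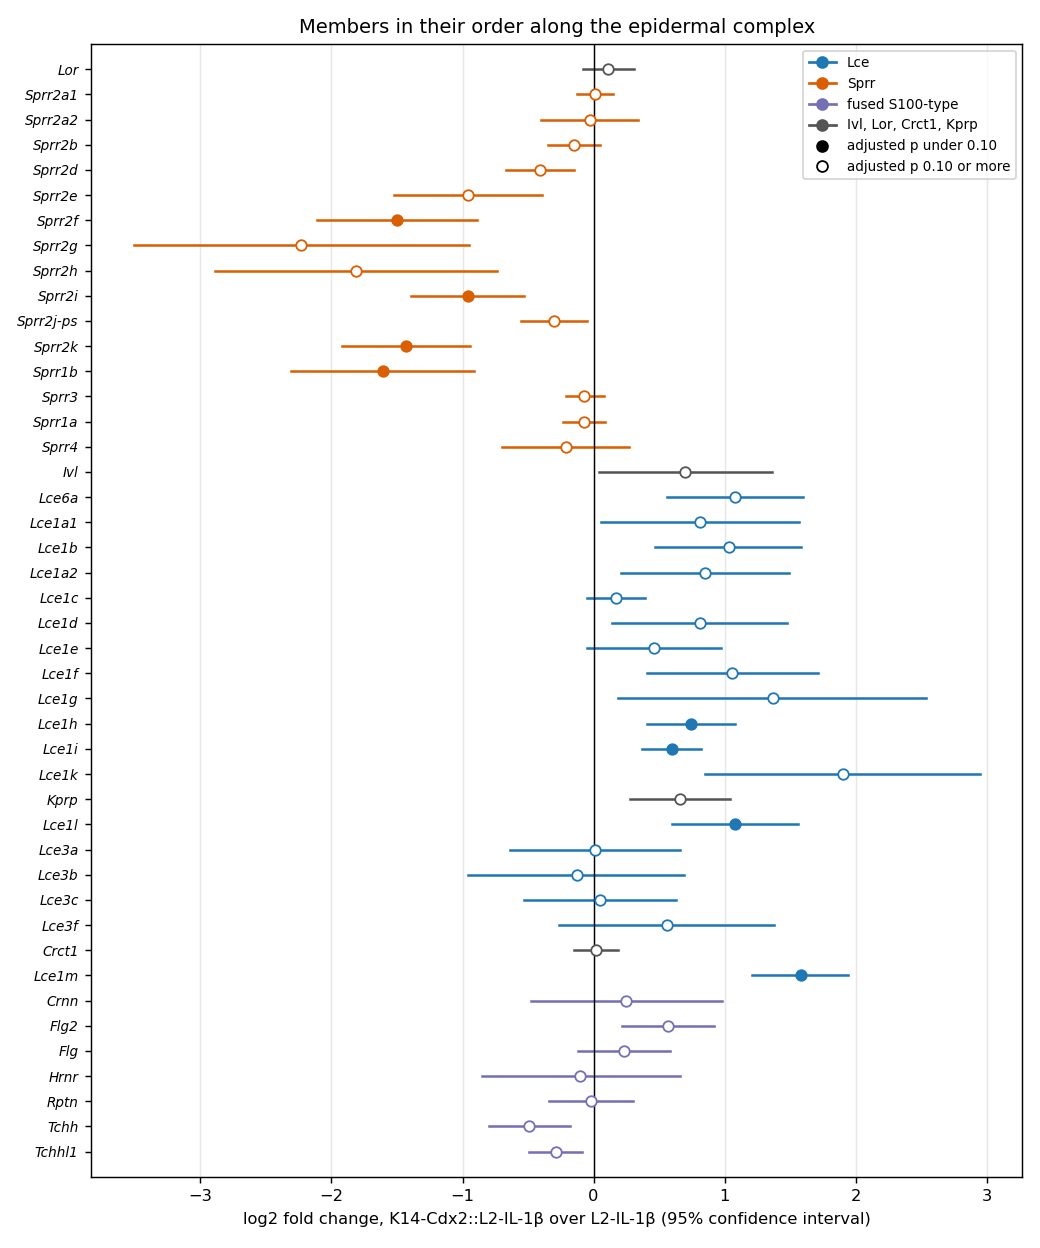
Log2 fold change of K14-Cdx2::L2-IL-1β over L2-IL-1β nodules for the 44 members from top to bottom in their order along the complex, with 95% confidence intervals. Filled points have an adjusted p under 0.10. The Sprr2b to Sprr1b block lies left of 0, the Lce6a to Lce1l block right of 0, and the intervals of the 4 Lce3 genes span 0.

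The members were also read by position, which arranges the same values anew. Over all probe sets, 8.3% lay higher and 11.5% lower in K14-Cdx2::L2-IL-1β samples without overlap. Ordered along the chromosome, 6 neighbouring members from Sprr2d to Sprr2i had K14-Cdx2::L2-IL-1β samples below all L2-IL-1β samples, then Sprr2k and Sprr1b likewise. After Sprr3, Sprr1a, Sprr4 and Ivl, 14 neighbouring members from Lce6a to Lce1l had K14-Cdx2::L2-IL-1β samples above all L2-IL-1β samples, including Kprp, which is no Lce gene. The run ended at the Lce3 genes and Crct1. Beyond them Lce1m and Flg2 each stood alone with K14-Cdx2::L2-IL-1β samples above all L2-IL-1β samples. Tchh and Tchhl1, side by side, had K14-Cdx2::L2-IL-1β samples below all L2-IL-1β samples. Between the members, 7 of 27 other RefSeq genes were found on the array, and of these 2310050C09Rik, named after its values were seen, was called higher. It had 11.52, 12.06 and 11.37 in K14-Cdx2::L2-IL-1β nodules, against 10.54, 9.88 and 10.58 in L2-IL-1β nodules (log2FC 1.32, SE 0.25, adjusted p = 0.0861, limma). Paralogs lie side by side here, so position and sequence likeness cannot be told apart.

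Among the 7 fused S100-type genes, 0 were called by limma, and 1 was higher and 2 were lower at an unadjusted p under 0.05, where 6% of all probe sets were higher and 7.68% lower. SAM called Flg2 higher, where it called 1.82% of all probe sets higher. The median log2FC of the 7 genes was -0.02. Flg2, which encodes a filaggrin-like protein, had 6.54, 6.59 and 6.07 in K14-Cdx2::L2-IL-1β nodules, against 5.75, 5.93 and 5.81 in L2-IL-1β nodules (log2FC 0.57, SE 0.15, adjusted p = 0.168, limma). It passed without sample 52542, and the median of the 7 genes was then 0.27. Flg, the gene of filaggrin, overlapped between genotypes (log2FC 0.23, 95% confidence interval -0.12 to 0.58). Rptn, the brightest of the 7, encodes repetin and had 13.03, 12.97 and 12.60 in K14-Cdx2::L2-IL-1β nodules, against 12.99, 12.73 and 12.95 in L2-IL-1β nodules (log2FC -0.02, 95% confidence interval -0.34 to 0.30, adjusted p = 0.963). Hrnr, for hornerin, and Crnn, for cornulin, also had overlapping genotypes, at -0.10 and 0.25. Tchh, the trichohyalin gene of hair root sheaths and tongue papillae, had 4.27, 4.42 and 4.64 in K14-Cdx2::L2-IL-1β nodules, against 5.13, 4.88 and 4.80 in L2-IL-1β nodules (log2FC -0.49, adjusted p = 0.174). Tchhl1 had a log2FC of -0.29 (adjusted p = 0.202). Flg2, Tchh and Tchhl1 were dim, each with a mean log2 intensity under 6.64 over the 6 arrays. Tchh and Tchhl1 were named after their values were seen.

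None of the 4 other envelope genes was called by limma, 2 were higher at an unadjusted p under 0.05 (6% of all probe sets), and SAM called Kprp. Ivl, the gene of involucrin, which is laid down first as a scaffold, had 11.00, 10.39 and 10.09 in K14-Cdx2::L2-IL-1β nodules, against 9.81, 9.40 and 10.17 in L2-IL-1β nodules (log2FC 0.70, SE 0.28, adjusted p = 0.341). Its genotypes overlapped. Lor, for loricrin, the main envelope protein of skin, averaged 13.93 ± 0.12 in K14-Cdx2::L2-IL-1β nodules, against 13.82 ± 0.06 in L2-IL-1β nodules (SD, n = 3 each), and its genotypes overlapped (log2FC 0.11, adjusted p = 0.615, limma). Kprp, a keratinocyte proline-rich protein, had 12.76, 12.90 and 12.56 in K14-Cdx2::L2-IL-1β nodules, against 12.34, 11.77 and 12.12 in L2-IL-1β nodules, and its genotypes did not overlap (log2FC 0.66, SE 0.16, adjusted p = 0.153). Crct1 had 12.38, 12.43 and 12.34 in K14-Cdx2::L2-IL-1β nodules, against 12.44, 12.28 and 12.37 in L2-IL-1β nodules (log2FC 0.02, 95% confidence interval -0.15 to 0.19, adjusted p = 0.943).

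Families were also followed within each sample, as the median over their genes of the difference from the L2-IL-1β mean. The Lce median was 0.52, 1.32 and 0.67 in samples 52540, 52541 and 52542, against 0.26, -0.32 and 0.09 in the L2-IL-1β samples. The Sprr median was -0.55, -0.27 and -0.59 in K14-Cdx2::L2-IL-1β samples, against 0.05, -0.10 and 0.02 in L2-IL-1β samples. The Lce median minus the Sprr median was thus 1.07, 1.59 and 1.26 in K14-Cdx2::L2-IL-1β samples, against 0.21, -0.22 and 0.07 in L2-IL-1β samples. All 3 K14-Cdx2::L2-IL-1β samples showed the split, in unequal parts. Sample 52541 had the highest value of its genotype in 15 of 18 Lce genes, and sample 52540 the lowest in 11 of 15 Sprr genes. Among L2-IL-1β samples, 52544 was lowest in all 18 Lce genes and 52543 highest in 17, so the Lce genes also varied together among samples of 1 genotype.

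**Figure D3:**
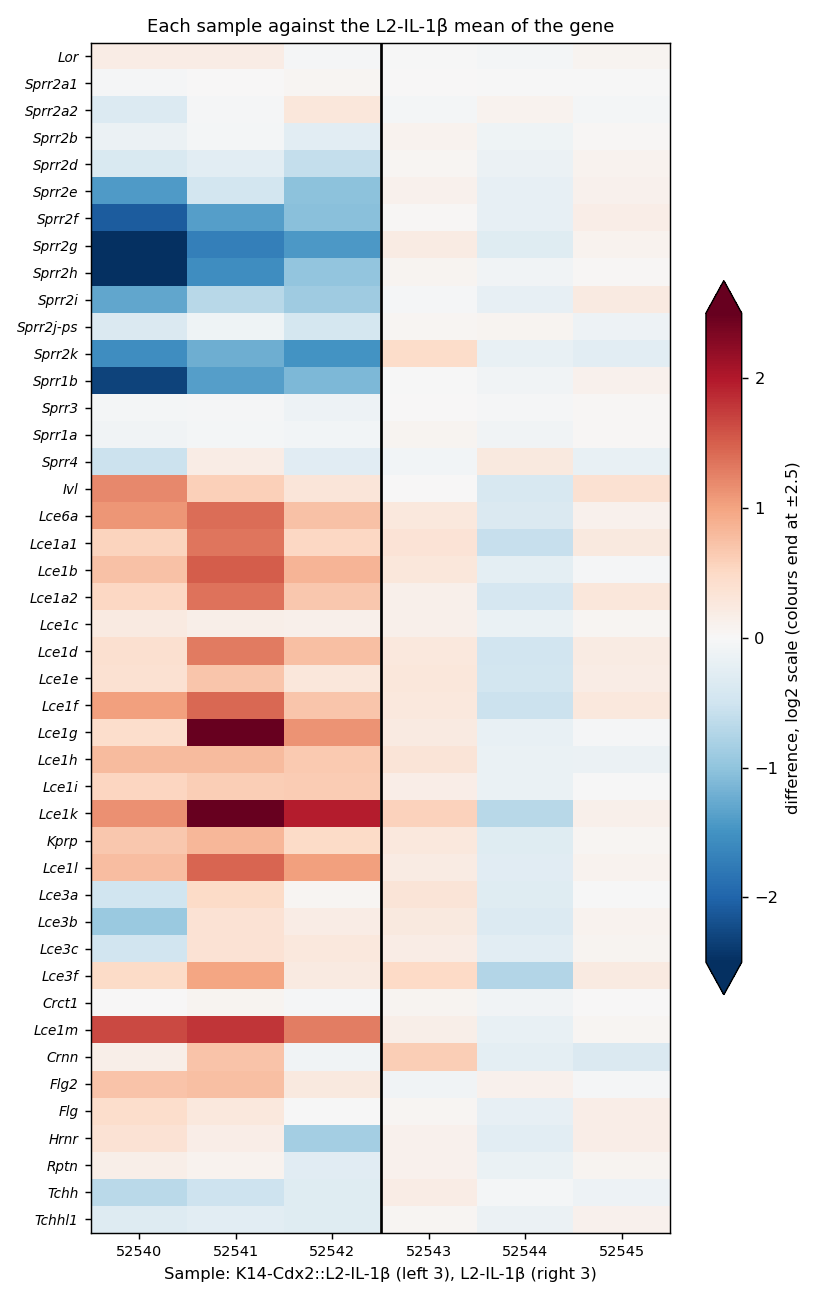
Difference of each sample from the L2-IL-1β mean of the gene (log2 scale, red higher, blue lower) for the 44 members in their order along the complex, with K14-Cdx2::L2-IL-1β samples in the left 3 columns and L2-IL-1β samples in the right 3. The blue Sprr2 and Sprr1b block is deepest in sample 52540 and the red Lce block strongest in sample 52541.

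**Figure D4:**
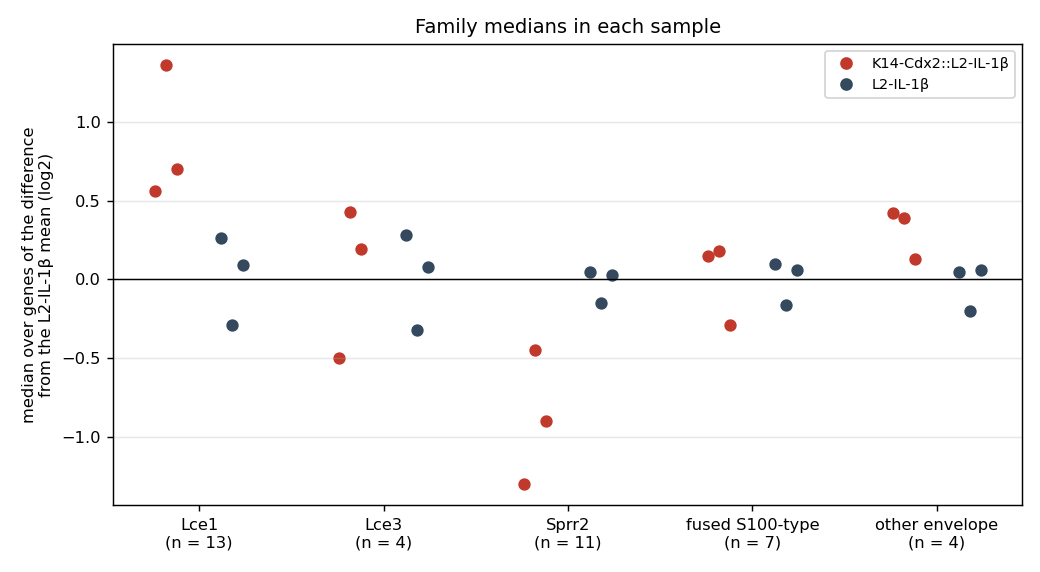
Median over the genes of each class of the difference from the L2-IL-1β mean, for each sample, with K14-Cdx2::L2-IL-1β samples left and L2-IL-1β samples right. The genotypes separate for Lce1, Sprr2 and, narrowly, the 4 other envelope genes. They overlap for Lce3 and the fused S100-type genes.

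Some samples stood apart. Over all probe sets, the mean correlation of sample 52540 was 0.990 with the L2-IL-1β samples and 0.987 with the other K14-Cdx2::L2-IL-1β samples. The median of 4 Y-linked genes differed from the L2-IL-1β mean by 4.25 log2 units in sample 52541 and by -0.09 to 0.03 in the other samples. Pancreatic acinar markers (6 genes) had a median difference of 3.65 in sample 52542, 0.10 in 52540 and 0.24 in 52541. Cdx2, which checks the labels, had 9.04, 9.72 and 9.83 in K14-Cdx2::L2-IL-1β nodules, against 6.74, 6.87 and 6.80 in L2-IL-1β nodules (log2FC 2.73, adjusted p = 0.0105, limma). The nodules are labelled as intestinal metaplasia, and the 6 intestinal columnar markers had summed linear intensities of 4540 to 12328 in K14-Cdx2::L2-IL-1β samples, against 5237 to 7826 in L2-IL-1β samples, with 0 of 6 called by limma and 0 at an unadjusted p under 0.05. The squamous keratin Krt5 lay between 13.24 and 13.31 in K14-Cdx2::L2-IL-1β samples, against 13.51 to 13.54 in L2-IL-1β samples (adjusted p = 0.152).

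The calls depended on single samples, while the directions of the 8 called genes did not. Of the 44 members, 13 were called without sample 52540, 1 (Lce1m) without 52541 and 7 without 52542. Over all probe sets, 2026, 72 and 631 were called in the same fits, against 631 with all 6 samples. The higher count of members without 52540 thus came with more calls over the whole table. Without 52543, 52544 or 52545, 0 members were called by limma, while 14, 10 and 14 were higher and 10, 10 and 11 were lower at an unadjusted p under 0.05. At that threshold 3.75%, 4.25% and 4.96% of all probe sets were higher and 5.26%, 5.89% and 5.48% lower in the same fits. The whole table also lost most calls there, with 13, 47 and 40 called, against 631 with all 6 samples. SAM on the 6 samples called 17 members, 10 of them higher and 7 lower, where it called 1.82% of all probe sets higher and 2.99% lower. The 8 called genes kept their sign in every alternative that tested them. The median Lce log2FC was 0.59 without sample 52541 and 0.61 without 52544, and over the single omissions it lay between 0.59 and 0.98. For Sprr genes it lay between -0.49 and -0.33.

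Among the members, the size of a difference also went with brightness. Of the 17 members with a mean log2 intensity of 12 or more, 1 (Sprr1b) was called, and the median absolute log2FC was 0.15. It was 0.81 among the 11 members from 9 to under 12, of which 4 were called, and 0.83 among the 16 members under 9, of which 3 were called. Over all probe sets the same bins had medians of 0.10, 0.13 and 0.08, and 3.05%, 2.93% and 1.52% of their probe sets were called. The part of array saturation in the small changes of bright members was not tested.

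**Figure D5:**
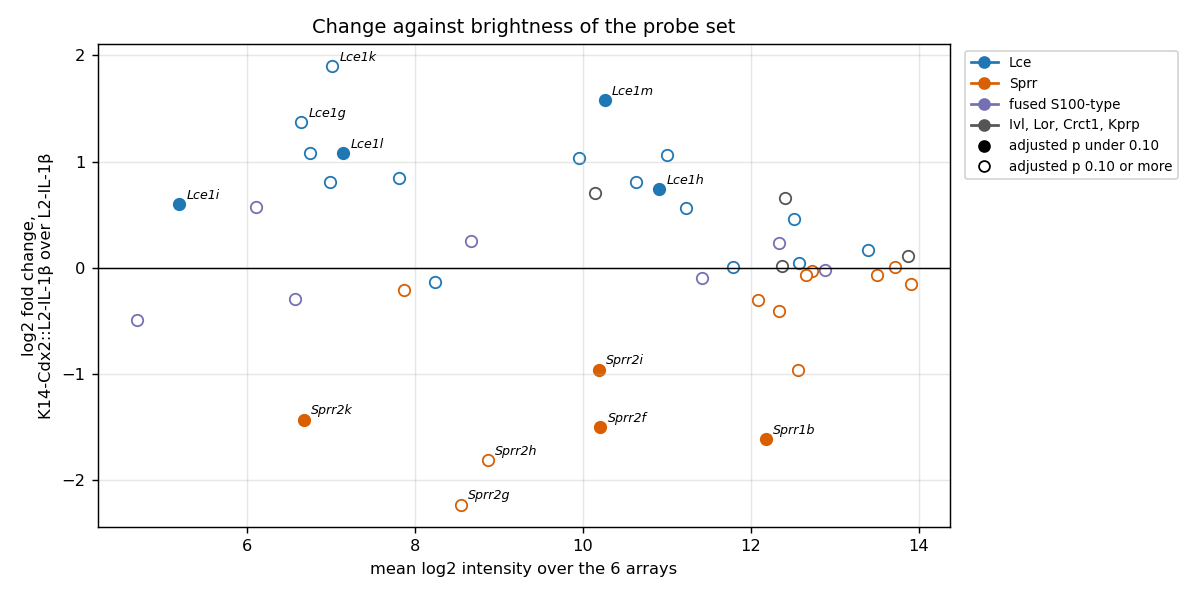
Log2 fold change of K14-Cdx2::L2-IL-1β over L2-IL-1β nodules against the mean log2 intensity over the 6 arrays, for the 44 members. Filled points have an adjusted p under 0.10, and of the 17 members at 12 or more only Sprr1b is filled.

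Enzymes and scaffold proteins of the envelope are also encoded outside the complex. Of 25 such genes 0 were called higher and 2 lower by limma, where 1.26% of all probe sets were called lower. At an unadjusted p under 0.05, 0 were higher and 7 lower, against 7.68% of all probe sets lower, and SAM called 0 higher and 4 lower, against 2.99% of all probe sets lower. The median log2FC was -0.19. Tgm5, a transglutaminase of the upper epidermis, averaged 9.32 ± 0.28 in K14-Cdx2::L2-IL-1β nodules, against 10.34 ± 0.27 in L2-IL-1β nodules (SD, n = 3 each), with a log2FC of -1.02 (SE 0.18, adjusted p = 0.0788). Cstb, a cysteine protease inhibitor, had a log2FC of -0.33 (adjusted p = 0.0854) with all K14-Cdx2::L2-IL-1β samples below all L2-IL-1β samples. Anxa1, an annexin of the envelope, did not pass (-0.51, adjusted p = 0.127), and Tgm1, the main membrane transglutaminase, named after its values were seen, had -0.26 (adjusted p = 0.319).

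Of the transcription factors of squamous differentiation 21 of 22 were found on the array, and 2 were called lower and 0 higher by limma, where 1.26% of all probe sets were called lower. At an unadjusted p under 0.05, 4 were lower and 1 higher, against 7.68% and 6% of all probe sets, and SAM called 2 lower and 0 higher, against 2.99% of all probe sets lower. Ovol1, a zinc finger repressor of epidermal proliferation, had 10.60, 10.62 and 10.30 in K14-Cdx2::L2-IL-1β nodules, against 11.20, 11.12 and 11.12 in L2-IL-1β nodules (log2FC -0.64, SE 0.10, adjusted p = 0.0601). Junb, a subunit of AP-1, had 10.69, 10.53 and 10.73 in K14-Cdx2::L2-IL-1β nodules, against 11.17, 11.07 and 11.13 in L2-IL-1β nodules (log2FC -0.47, SE 0.08, adjusted p = 0.0618). In both genes no sample of one genotype reached the other. Cebpb did not pass (-0.26, adjusted p = 0.245), and Klf4 (0.01) and Grhl3 (-0.34, adjusted p = 0.422), named after their values were seen, did not pass either.

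Markers of other cells and layers moved with these groups, and their part in the results was not tested (Trp63 and Dsg1a stand on 2 lists each). Among the 5 suprabasal keratins of esophagus and forestomach, Krt6a (-1.23, adjusted p = 0.0508, limma) and Krt16 (-1.04, adjusted p = 0.0479), both keratins of stressed epithelium, were called lower. Krt4 (-0.38), Krt13 (-0.10) and Krt78 (0.30) did not pass, and 1.26% of all probe sets were called lower. The summed linear intensity of the 5 lay between 29275 and 31872 in K14-Cdx2::L2-IL-1β samples, and between 43250 and 45524 in L2-IL-1β samples. Krt6a and Krt16 give the most to the difference between these sums. Among the 7 basal squamous markers 1 was called lower (Krt14, -0.57, adjusted p = 0.0416), against the same 1.26% of all probe sets. Krt5 (-0.24), Col17a1 (-0.46), Trp63 (-0.10), Itgb4 (-0.06), Krt15 (0.25) and Dst (0.37) did not pass. The sums, to which the bright Krt5 and Krt14 give the most, were 23452 to 23848 in K14-Cdx2::L2-IL-1β samples, against 28007 to 29518 in L2-IL-1β samples. The 6 neutrophil markers had sums of 4307 to 5648 in K14-Cdx2::L2-IL-1β samples, against 12841 to 15422 in L2-IL-1β samples. The bright S100a8 gives the most to these sums. S100a8 (-1.72) and S100a9 (-1.90) were called lower by limma, while Csf3r (-1.50), Mmp9 (-1.39), Cxcr2 (-0.98) and Retnlg (-0.85) did not pass. At an unadjusted p under 0.05 all 6 were lower, against 7.68% of all probe sets. S100a8 and S100a9 lie in the same chromosomal region and are also expressed by squamous cells. One of 5 pan-leukocyte markers was called lower by limma (Cd53, -1.03, adjusted p = 0.0428), and all 5 were lower at an unadjusted p under 0.05. Over all probe sets these shares were 1.26% and 7.68%. The sums of the 5 were 1245 to 1860 in K14-Cdx2::L2-IL-1β samples, against 2559 to 3004 in L2-IL-1β samples.

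Beside the Lce genes, 2 of 6 sebaceous and upper follicle markers were called higher, where 0.576% of all probe sets were called higher. They were Far2 (2.41, adjusted p = 0.0409, limma) and Krt79 (1.89, adjusted p = 0.0735). Mgst1 (0.44, adjusted p = 0.237) and Scd1 (0.12) did not pass. Sums of the 6, to which the bright Scd1 gives the most, were 4148 to 6161 in K14-Cdx2::L2-IL-1β samples, against 2820 to 3668 in L2-IL-1β samples. The sebocyte genes Awat2 and Elovl3 stayed between 5.18 and 6.36 in K14-Cdx2::L2-IL-1β samples, and between 5.15 and 6.23 in L2-IL-1β samples. The epidermal keratins Krt1 (0.00) and Krt10 (-0.06), which accompany the envelope program, were not called, and none of the 5 epidermal suprabasal markers was called, with 0 higher and 1 lower at an unadjusted p under 0.05. Marker sums of gastric, intestinal, pancreatic and smooth muscle cells overlapped between genotypes, and none of these markers was called by limma. All 5 smooth muscle genes had a positive log2FC (median 0.53). Among them Myh11 (0.75, unadjusted p = 0.0248, adjusted p = 0.28), Tagln (0.56, unadjusted p = 0.029, adjusted p = 0.298) and Acta2 (0.30, adjusted p = 0.367) did not overlap between genotypes. Over all probe sets, 8.3% lay higher in K14-Cdx2::L2-IL-1β samples without overlap. The 6 parietal and chief cell genes had a median of 0.71, with Gif at 1.51 (unadjusted p = 0.0308, adjusted p = 0.305) and Atp4a at 1.36 (adjusted p = 0.376), both without overlap. The 6 surface and neck mucous genes had a median of 0.18, with Muc5ac at 1.22 (unadjusted p = 0.0165, adjusted p = 0.239) and overlapping genotypes.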

How the data were processed

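Total RNA of whole nodules was hybridised to 6 Affymetrix mouse gene arrays, whose version differs between the methods and the design text. The authors deposited log2 intensities per probe set, already normalized by software and a method that the sources used here do not name. The 2 deposited tables of values per array were identical. Columns of the authors' own comparison (fold change, ratio, SAM score, q-value, p-value) were left aside. The submitters' notes name the build mm8, transcript positions in the annotation are NCBIM37, and promoter sequences are from RefSeq on GRCm38.p6, whose gene order was used only to rank neighbours.

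All 34365 probe sets were fitted with limma 3.58.1 in R 4.3.3 (lmFit, eBayes with 2.59 prior degrees of freedom, genotype as the only term, Benjamini-Hochberg adjustment over all probe sets). Calls needed an adjusted p under 0.10, with no limit on the fold. An exact permutation test (two-sided) was run for single genes. SAM was rebuilt with 20 relabellings and a false discovery rate of 10%. The genes named were the called members, the member of each class with the smallest p and that with the highest mean, the 4 other envelope genes, the called genes and the 3 smallest p of each outside list, Cdx2, and the genes most like the Lce and Sprr medians. Every other gene named was chosen after its values were seen or completes a class or list, also where the text does not repeat it. The members, lists and rule were chosen with earlier results of these data known. The p-values measure the spread between these samples, of which there are 6. The limma and SAM fits were tested on simulated data. Array medians lay between 6.62 and 6.65. Alternatives were median centring, quantile normalization, leaving out probe sets with a mean under 6.64, eBayes with trend and robust, SAM, an adjusted p under 0.05, an additional fold of 2, averaging all probe sets of a gene, and leaving out each sample. Python 3.11.15 was used with Biopython 1.88, numpy 2.4.6, pandas 2.3.3 and matplotlib 3.10.9.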

Additional observations from a re-analysis of the deposited data

How the results depend on the processing

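With 3 samples a genotype, the number of arrays limits every call. The 8 called genes kept their direction in all 14 alternatives, except that Lce1i was not tested once dim probe sets were left out, and none kept its call in each. No paired analysis was possible because the genotypes share no replicate number.

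SAM called 624 probe sets higher and 1028 lower over the whole table, against 198 and 433 by limma, and among the families 8 Lce genes higher, 7 Sprr genes lower, 1 fused S100-type gene higher and 1 other envelope gene higher, with 4 genes of the cross-linking and scaffold list lower. At an adjusted p under 0.05 limma called 46 probe sets higher and 144 lower, with 1 Lce gene higher, 1 Sprr gene lower, and 0 genes lower in the scaffold list and in the transcription factor list. With an additional fold of 2 it called 22 higher and 115 lower, with 2 Lce genes higher, 1 scaffold gene lower and 0 transcription factors lower. Quantile normalization left 1 scaffold gene lower. When 1 sample was left out, the number of higher probe sets lay between 0 and 751 and of lower ones between 13 and 1275, which also left fewer samples to test. Over the same omissions 0 to 7 Lce genes were higher, 0 to 6 Sprr genes lower, 0 to 1 fused S100-type genes higher, 0 to 4 scaffold genes lower and 0 to 2 transcription factors lower. The fused S100-type median lay between -0.10 and 0.27, with 0.27 without sample 52542. The cause of these differences was not tested. The Lce, Sprr and other family medians moved by less than the spread between samples under the other settings.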

Other observations

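Genes outside the complex were ranked by how closely their 6 values followed the family medians, as a description over 6 arrays that share the difference between genotypes. Of 24603 genes, 85 had a Pearson r of 0.95 or more with the Lce median, led by Fam193b (0.995), Nt5c3 (0.994), Vmn1r33 (0.994), Kctd4 (0.990) and Gramd1c (0.988). With the Sprr median 220 genes had such an r, led by Ctsd (0.996), the gene of the lysosomal protease cathepsin D, Stab2 (0.995), LOC100861646 (0.994), Prr5l (0.993) and Fcamr (0.993). None of these 10 genes was called by limma. Kctd4 had 9.33, 10.04 and 9.27 in K14-Cdx2::L2-IL-1β samples, against 9.01, 8.23 and 8.66 in L2-IL-1β samples, and Fcamr had 8.09, 8.43 and 7.94 in K14-Cdx2::L2-IL-1β samples, against 8.97, 8.69 and 8.82 in L2-IL-1β samples.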
